A study of Mus musculus with 2 samples.

Results

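Expression of 10 genes of the epidermal growth factor receptor (EGFR) and ERBB signaling system was examined in mouse pseudoblastocysts, embryos that had formed a cavity and were collected without checking for an inner cell mass. The genes were taken by name from a table of 52366 genes and comprise the receptors Egfr, Erbb2 and Erbb3, the ligand Hbegf, the adaptor Grb2, and the negative regulators Errfi1, Cbl, Cblb, Lrig1 and Socs5. All 10 were found in the table. They belong to the EGFR and ERBB pathways, which the study relates to 2CB and 4CB embryos from these samples, so their direction is not independent evidence.

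ERBB receptors are tyrosine kinases of the cell surface that pair with each other when a ligand binds. ERBB2 has no known ligand of its own and ERBB3 has a weak kinase, so the pair of them signals chiefly together, whereas EGFR binds HB-EGF and other ligands and passes the signal through GRB2 to the RAS and ERK kinases. In the blastocyst the trophectoderm, the outer epithelium that attaches to the uterus, is known for ERBB receptors, and HB-EGF is a signal of implantation. The signal is ended by ubiquitin ligases such as CBL and CBLB and by feedback inhibitors such as the protein of Errfi1, which binds the kinase domain.

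Single-embryo RNA sequencing was available for 24 pseudoblastocysts at 96 h postinsemination (hpi), 6 of each of 4 stages of origin. The 1C embryos came from zygotes freed of the zona pellucida at 5 hpi, and 2CB, 4CB and 8CB embryos grew from single blastomeres isolated from 2-cell embryos at 24 hpi and from 4-cell and 8-cell embryos at 48 hpi. All were made by in vitro fertilization of oocytes from B6D2F1 females, 8 to 9 weeks old, with sperm of ICR males, 15 to 20 weeks old, and none carried a transgene or received an agent that the labels name. Libraries were made with CEL-Seq2, which counts barcoded RNA 3′ ends by unique molecular identifiers (UMIs), in 2 pools, one of the 1C and 8CB embryos and the other of the 2CB and 4CB embryos. Comparisons across the pools, and everything called higher in 2CB and 4CB embryos below, therefore rest on a division in which stage and pool cannot be told apart. Only 8CB against 1C and 4CB against 2CB hold the pool fixed. The labels do not say which embryos shared parents, so p-values measure the spread between these embryos.

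Total UMIs ranged from 70941 to 1507471 per embryo. Their mean was higher in the pool of 2CB and 4CB embryos, by 308810 (permutation test with 100000 resamples, two-sided, p = 0.0198). The medians of the pools were 388686 and, for the pool of 1C and 8CB embryos, 313283. By median, 2CB embryos had the most UMIs (519932). The median of 4CB embryos, 216325, was below that of 1C embryos (244312) and that of 8CB embryos (313283). The same 12 barcodes were used in each pool. Levels are given as CPM, the UMIs of a gene scaled to the total UMIs of the embryo, with no correction for gene length. Tests compare embryos for 1 gene at a time. Sums of CPM over genes and the order of genes by CPM are given as descriptions only. Of the 10 genes, 5 (Erbb2, Erbb3, Errfi1, Cbl and Grb2) passed the filter on low counts, which asks for about 30.2 CPM in several embryos. Erbb2 reached that level in 9 of the 12 2CB and 4CB embryos and 1 of the 12 1C and 8CB embryos, Errfi1 in 11 and 0, and Erbb3 in 11 and 4, so these genes entered the test mainly through the embryos in which they were high, and the number of genes called among the 5 supports nothing by itself. A gene was called at a Benjamini-Hochberg adjusted p below 0.1 in edgeR's quasi-likelihood test over 5940 genes. The same fit without a filter, over 23171 genes, gave values for the other 5.

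Markers of the blastocyst lineages were detected in every embryo. Summed levels of 17 trophectoderm markers lay between 3568 and 7256 CPM in 2CB and 4CB embryos and between 871 and 1309 CPM in 1C and 8CB embryos. Of the 15 markers tested, 11 were called higher and 2 lower in 2CB and 4CB embryos, where 31.3% of all genes tested were called higher and 55.3% in either direction. The 2 lower were Hand1 (log2 fold change −4.64) and Tfap2c (−0.74). Sums of 15 primitive endoderm markers were 1511 to 3879 CPM against 825 to 1552 CPM, and those of 12 epiblast and inner cell mass markers 341 to 1189 CPM against 818 to 2548 CPM. These lists moved unevenly. Of 9 tested primitive endoderm markers 7 were called higher and 1, Gata6 (log2 fold change −0.67), lower. Of 8 tested epiblast and inner cell mass markers 6 were called lower and 2, Sox2 (log2 fold change 1.96) and Tdgf1 (1.10), higher. Over the alternatives that tested the same 8 genes, 1 or 2 were called higher and 5 or 6 lower. Without a filter all 12 were tested, with 4 called higher and 5 lower, beside 14.2% of all genes called higher. After thinning each embryo to 70941 UMIs, 4 were tested, with 1 called higher and 3 lower. Of 12 cumulus and granulosa cell markers, Has2, Ptx3, Inha, Amh, Cyp11a1, Cyp19a1, Fshr and Foxl2 were at 0 in all embryos, and the sum reached 7.30 CPM in 2CB and 4CB and 25.6 CPM in 1C and 8CB embryos. Sums of 11 oocyte and maternal transcripts were 5.08 to 22.0 CPM in 2CB and 4CB embryos and 12.1 to 117 CPM in 1C and 8CB embryos. These markers moved with the same division as the ERBB genes, and their part in the results below was not tested. In RNA from whole embryos, fewer cells of a type and less RNA per cell cannot be told apart.

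Erbb2, Erbb3 and Errfi1 were higher in 2CB and 4CB embryos, Cbl was called higher there with a smaller fold change, and Grb2 was not called in either direction. Of the 5 genes tested, 4 were called higher in 2CB and 4CB than in 1C and 8CB embryos and 0 lower, beside 31.3% of all genes tested that were called higher and 55.3% called in either direction. The median log2 fold change was 1.56 for the 5 genes and 0.12 for all 5940. Since Erbb2, Erbb3 and Errfi1 passed the filter mainly through embryos in which they were high, the median of the 5 supports nothing by itself either. Without a filter, 7 of the 10 were called higher, beside 14.2% of 23171 genes. Grb2, the only one of the 5 with a negative value, was the exception among the tested genes, and it was called lower when any of 5 embryos was left out.

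**Figure D1:**
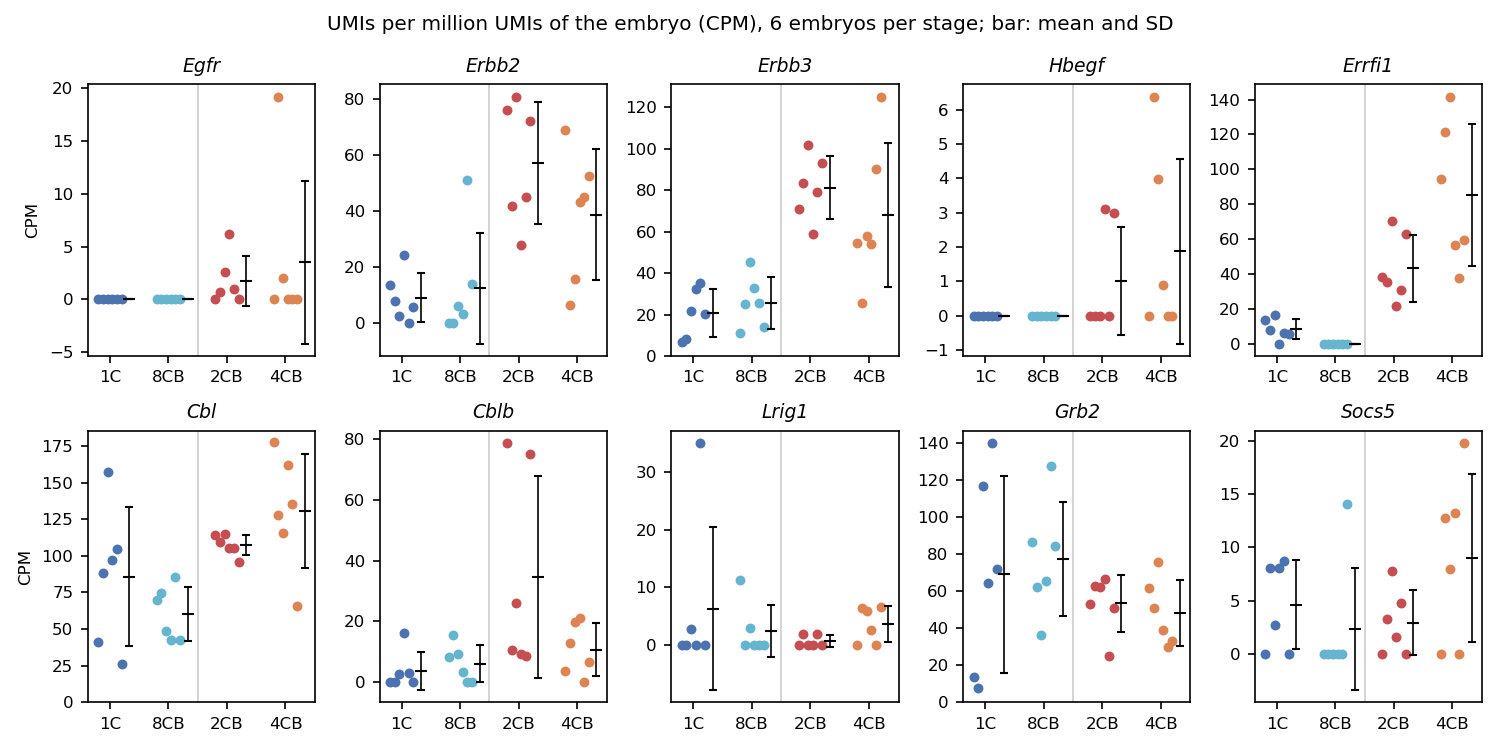
Levels of the 10 genes in each of 24 embryos (points, CPM on the vertical axis, a linear scale that differs by panel), grouped by stage on the horizontal axis with the pool of 1C and 8CB on the left and that of 2CB and 4CB on the right of the grey line. Horizontal ticks give the mean and bars the SD of 6 embryos, and for Errfi1 the 12 points on the right, from 21.7 CPM up, all lie above the 12 on the left, which end at 16.3 CPM.

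Among the receptors, Erbb2 (ENSMUSG00000062312.5, chromosome 11, 98412470 to 98437716, forward strand, GRCm38) showed one of the larger differences. Its level was 0 to 24.3 CPM with a median of 6.89 in 1C embryos, 27.9 to 80.8 CPM with a median of 58.5 in 2CB embryos, 6.38 to 68.9 CPM with a median of 44.3 in 4CB embryos and 0 to 51.2 CPM with a median of 4.68 in 8CB embryos (n = 6 each). The pools overlapped: 8CB embryo 5 reached 51.2 CPM on 6 UMIs and 1C embryo 4 24.3 CPM, whereas 4CB embryos 2 and 3 were at 6.38 and 15.9 CPM. Over 12 embryos 304 UMIs were counted in 2CB and 4CB and 19 in 1C and 8CB, a 7.10-fold ratio of summed CPM with a 95% counting interval of 4.47 to 11.9, which covers counting error only, as do all such intervals here. The fitted log2 fold change was 2.56 ± 0.53 (SE, edgeR adjusted p = 0.000226). Leaving out each embryo in turn kept it between 2.34 and 3.18 and called.

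Within the pools no difference of Erbb2 was called. The log2 fold change was 0.22 ± 0.96 in 8CB relative to 1C embryos and −0.57 ± 0.58 in 4CB relative to 2CB embryos, with edgeR adjusted p-values of 0.969 and 1.00. The sign of the first turned when 8CB embryo 5 was left out, to −1.09, and also without 1C embryo 3 (−0.03) or 1C embryo 5 (−0.15), so no order of 8CB and 1C can be read. The last 9 bases of Erbb2 overlap, on the opposite strand, the end of Mien1, which had 2436 UMIs in the 24 embryos against 323 for Erbb2. The strand setting of the counting is not given in the sources used here, and reads in those bases could not be assigned to one of the genes without it.

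The region around the start of Erbb2 is shown because the gene rose together with Errfi1 across the pools. RefSeq (GRCm38.p6) places the start so that a window of 250 bases before and 50 after it spans chr11:98412234-98412533 on the forward strand. In these lines capitals mark matches to the motif GGAATG of TEAD factors, the DNA-binding partners of YAP in the trophectoderm, or to TGACGTCA, the cAMP response element (CRE), both searched on either strand.

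Erbb2: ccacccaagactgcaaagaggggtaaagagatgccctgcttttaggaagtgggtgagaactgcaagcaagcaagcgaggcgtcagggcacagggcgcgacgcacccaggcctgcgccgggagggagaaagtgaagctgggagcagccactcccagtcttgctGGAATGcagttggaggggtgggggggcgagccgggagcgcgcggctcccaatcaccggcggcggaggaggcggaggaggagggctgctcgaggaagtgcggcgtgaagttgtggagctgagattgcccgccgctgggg

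The TEAD match of Erbb2 starts 88 bases before the start site. The motif was present in 14.7% of 32817 RefSeq windows of the same length, so 1 match is a description of the letters and not of binding. Windows were searched for 7 of the 10 genes, 9 windows in all. Windows of the 10 genes on chromosome 18, where Hbegf lies, were left out, and none was at hand for Erbb3 and Socs5.

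Erbb3 (ENSMUSG00000018166.8, chromosome 10, 128567523 to 128589652, reverse strand), the partner receptor of ERBB2, differed with a narrower spread. Its level was 6.86 to 35.0 CPM with a median of 21.0 in 1C embryos, 58.8 to 102 CPM with a median of 81.5 in 2CB embryos, 25.5 to 125 CPM with a median of 56.1 in 4CB embryos and 11.2 to 45.6 CPM with a median of 25.2 in 8CB embryos. All embryos had at least 1 UMI, and 11 of the 12 2CB and 4CB embryos lay above every 1C and 8CB embryo, 4CB embryo 2 being the exception at 25.5 CPM. The log2 fold change between the pools was 1.56 ± 0.28 (SE, edgeR adjusted p = 4.01e-05), from 485 UMIs against 74. It stayed between 1.38 and 1.66 with each embryo left out.

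Erbb3 did not separate stages of a pool. The log2 fold change was 0.34 ± 0.44 for 8CB against 1C (edgeR adjusted p = 0.849) and −0.33 ± 0.36 for 4CB against 2CB (edgeR adjusted p = 1.00). In the order of stage medians, 2CB stood above 4CB, 8CB and 1C, and neither pair of neighbours within a pool differed beyond its spread.

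Egfr (ENSMUSG00000020122.16, chromosome 11, 16752203 to 16918158, forward strand) was at the edge of detection. It had 7 UMIs in 4 of 6 2CB embryos, 4 UMIs in 2 of 6 4CB embryos and 0 in all 12 1C and 8CB embryos, where 0 of 2952530 UMIs allows a level of up to 1.02 CPM. The summed level of 1.65 CPM in 2CB and 4CB embryos was 1.63 times that floor of 3 counts over the group, and the lower 95% counting limit of the ratio between the pools was 1.11. In the fit without a filter Egfr was called (edgeR adjusted p = 0.0287), on 11 UMIs of which 4 lay in 2CB embryo 4 and 3 in 4CB embryo 2. Thinned to 70941 UMIs per embryo, 3 UMIs in 2 embryos were left. Erbb4, the remaining receptor of the family, had 1 UMI, in a 4CB embryo (6.38 CPM).

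Hbegf (ENSMUSG00000024486.5, chromosome 18, 36504929 to 36515805, reverse strand), the ligand, was sparser still. It had 3 UMIs in 2 of 6 2CB embryos, 4 UMIs in 3 of 6 4CB embryos and 0 in all 1C and 8CB embryos. Its level over 2CB and 4CB embryos was 1.05 CPM, close to the floor of 1.02 CPM. The lower 95% counting limit of the ratio between the pools was 0.639, below 1. The fit without a filter called Hbegf (edgeR adjusted p = 0.0954), on these 7 UMIs. Of 10 other ERBB ligands, 0 passed the filter, and their summed level was 5.08 to 63.8 CPM in 2CB and 4CB embryos and 0 to 92.3 CPM in 1C and 8CB embryos. Without a filter 8 of them were tested, with 1 called higher and 1 lower in 2CB and 4CB embryos. One of them, Epgn, which encodes epigen and is named after its values were seen, had 51 UMIs, 14 in a single 2CB embryo and 37 in a single 4CB embryo.

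Errfi1 (ENSMUSG00000028967.10, chromosome 4, 150853919 to 150868892, forward strand), the feedback inhibitor known as MIG6, was the only one of the 10 genes whose pools did not overlap. It ranged from 0 to 16.3 CPM with a median of 6.92 in 1C embryos, from 21.7 to 70.4 CPM with a median of 36.6 in 2CB embryos, from 37.7 to 142 CPM with a median of 76.8 in 4CB embryos, and was at 0 in all 6 8CB embryos. The lowest of the 2CB and 4CB embryos exceeded the highest of the 1C and 8CB embryos, a pattern that 3.54% of the genes tested had. The UMIs numbered 356 in 2CB and 4CB embryos and 13 in 1C embryos, so that the ratio of summed CPM between the pools was 12.1 with a 95% counting interval of 7.01 to 23.0. The difference was called (edgeR adjusted p = 1.86e-08). Its fitted log2 fold change of 5.16 depends on the prior count of the fit, since 8CB embryos are at 0, and is no bound.

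Against 1C embryos, which had UMIs in 5 of 6 embryos, Errfi1 was higher by 2.23 ± 0.52 on the log2 scale in 2CB embryos and by 3.22 ± 0.52 in 4CB embryos (SE, edgeR adjusted p = 0.00178 and 4.41e-05). In 8CB embryos 0 of 1500739 UMIs allows up to 2.00 CPM, and the level of 8.95 CPM over 1C embryos was 4.48 times this floor. The upper 95% counting limit of the ratio of 8CB to 1C was 0.317. That difference within the pool was not called (edgeR adjusted p = 0.184) but was called without a filter (0.0587). Between 4CB and 2CB embryos the log2 fold change was 0.99 ± 0.41, also not called (edgeR adjusted p = 1.00, unadjusted p = 0.0235 in the same fit).

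The direction of Errfi1 thus differed between the pools in the values, lower in 8CB than in 1C and higher in 4CB than in 2CB. The test of this difference of differences was not past the threshold (edgeR adjusted p = 0.175). It was called with DESeq2, without a filter (adjusted p = 0.0188), and when 1C embryo 6 or 4CB embryo 5 was left out, with adjusted p-values of 0.0741 to 0.274 over the 24 embryos left out in turn. No other of the 5 genes was called in this test, in which 0% of all genes were called in edgeR, 532 had an unadjusted p below 0.05 and DESeq2 called 34.

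RefSeq lists 2 start sites of Errfi1 with windows at chr4:150853546-150853845 and chr4:150854820-150855119, both on the forward strand. The first holds a TEAD match 65 bases before its start and the second a CRE match 51 bases before its start, and 1.79% of windows hold that CRE motif. They are shown, with capitals as above, for the gene with the clearest separation.

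Errfi1 first start: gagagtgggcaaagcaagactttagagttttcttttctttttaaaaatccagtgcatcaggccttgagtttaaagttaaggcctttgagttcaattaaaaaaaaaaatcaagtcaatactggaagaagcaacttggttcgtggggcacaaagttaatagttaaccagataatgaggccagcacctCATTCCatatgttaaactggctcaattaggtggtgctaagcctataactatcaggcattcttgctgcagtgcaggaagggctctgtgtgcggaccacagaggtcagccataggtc

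Errfi1 second start: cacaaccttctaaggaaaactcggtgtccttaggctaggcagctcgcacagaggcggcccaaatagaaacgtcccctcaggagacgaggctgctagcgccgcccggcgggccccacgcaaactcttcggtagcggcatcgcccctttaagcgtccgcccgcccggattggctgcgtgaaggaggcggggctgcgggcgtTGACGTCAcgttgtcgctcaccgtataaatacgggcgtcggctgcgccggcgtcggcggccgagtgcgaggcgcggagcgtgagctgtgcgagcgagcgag

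Among the other windows, Cbl held a TEAD match 224 bases before its start, and Grb2 and Lrig1 held the motif GCCNNNGGC of AP-2 factors, which 16.6% of windows hold. None of these 3 motifs was found in the windows of Egfr and Cblb. No relation of these letters to the levels was tested.

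**Figure D2:**
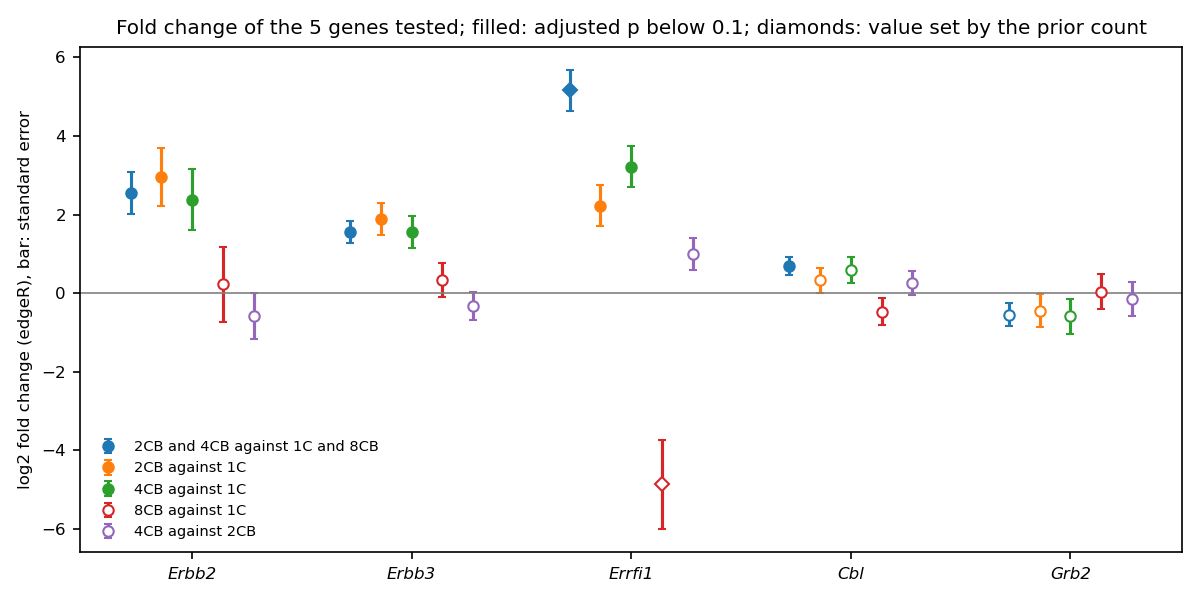
Fitted log2 fold change (vertical axis, edgeR, bars give the SE) of the 5 genes tested, for the comparison of the pools, 2CB and 4CB each against 1C, and both comparisons within a pool, with filled symbols for an adjusted p below 0.1. The comparison of the pools is called for 4 genes and neither comparison within a pool for any, and the diamonds of Errfi1 involve 8CB embryos at 0 and are set by the prior count.

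Cbl (ENSMUSG00000034342.9, chromosome 9, 44142976 to 44234049, reverse strand), the ubiquitin ligase that marks activated receptors for degradation, was detected in every embryo and differed less. Its level was 26.0 to 157 CPM with a median of 92.6 in 1C embryos, 96.1 to 115 CPM with a median of 107 in 2CB embryos, 65.9 to 178 CPM with a median of 132 in 4CB embryos and 42.3 to 85.3 CPM with a median of 59.3 in 8CB embryos. The pools overlapped, with 1C embryo 3 at 157 CPM above all but 2 of the other pool. The log2 fold change between the pools was 0.70 ± 0.23 (SE, edgeR adjusted p = 0.0137), called with every embryo left out in turn.

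Across the pools, pairs of stages of Cbl were called only against 8CB embryos in the fit with the filter, and these calls depended on the setting. The log2 fold change was −0.80 ± 0.33 in 8CB relative to 2CB embryos and −1.06 ± 0.33 relative to 4CB embryos (edgeR adjusted p = 0.0637 and 0.0149), whereas 2CB and 4CB against 1C, at 0.33 ± 0.32 and 0.59 ± 0.32, were not called. The call against 2CB was lost in 7 of the 24 fits with an embryo left out (without 2CB embryo 1, 2, 3 or 4 or 8CB embryo 3, 4 or 6), and both calls were lost without a filter or after thinning. Leaving out 1C embryo 3, or testing with DESeq2, brought 4CB against 1C past the threshold. Within the pool, 8CB against 1C was −0.47 ± 0.34 and 4CB against 2CB 0.26 ± 0.31, with no call.

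Cblb (ENSMUSG00000022637.10, chromosome 16, 52031549 to 52208047, forward strand), the close relative of Cbl, did not pass the filter. It ranged from 0 to 16.2 CPM in 1C, 8.61 to 78.7 CPM in 2CB, 0 to 21.2 CPM in 4CB and 0 to 15.6 CPM in 8CB embryos, with medians of 1.36, 18.3, 9.68 and 5.84. The 2CB embryos fell in separate ranges, with 2CB embryos 1 and 6 at 78.7 and 75.1 CPM and the others at 26.1 CPM or less. Without a filter Cblb was called between the pools, with a log2 fold change of 2.00 ± 0.56 (SE, edgeR adjusted p = 0.00352), and 4CB against 2CB, at −1.48 ± 0.64, was not (edgeR adjusted p = 0.548). In the same fit 2CB against 1C (3.40 ± 0.83, adjusted p = 0.000957) and 8CB against 2CB (−2.07 ± 0.71, adjusted p = 0.0384) were called. The pairs with 4CB embryos were not, at 1.92 ± 0.87 relative to 1C (adjusted p = 0.151) and −0.59 ± 0.74 for 8CB relative to 4CB (adjusted p = 0.702).

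Lrig1 (ENSMUSG00000030029.14, chromosome 6, 94604529 to 94700158, reverse strand), a membrane protein that promotes receptor degradation, had 31 UMIs in all, 12 of them in 1C embryo 5. It was at 0 in 4 of 6 1C, 4 of 6 2CB, 2 of 6 4CB and 4 of 6 8CB embryos, and no difference was called without a filter (log2 fold change between the pools −1.24 ± 0.77, edgeR adjusted p = 0.304). It shares 144 exon bases with Slc25a26 on the opposite strand, which had 54 UMIs. Socs5 (ENSMUSG00000037104.8, chromosome 17, 87107679 to 87137583, forward strand), which targets EGFR for degradation, had 45 UMIs, with medians of 5.37, 2.43, 10.4 and 0 CPM in 1C, 2CB, 4CB and 8CB embryos. It was not called either (1.26 ± 0.82, edgeR adjusted p = 0.337).

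Grb2 (ENSMUSG00000059923.13, chromosome 11, 115644045 to 115708597, reverse strand), the adaptor that links the receptors to RAS, was detected in all embryos. Its level was 8.02 to 140 CPM with a median of 68.4 in 1C embryos, 24.9 to 66.6 CPM with a median of 57.9 in 2CB embryos, 30.1 to 75.8 CPM with a median of 45.0 in 4CB embryos and 36.4 to 128 CPM with a median of 75.0 in 8CB embryos. The ranges of all stages overlapped, and the 1C embryos spanned the whole range of the others. The log2 fold change between the pools was −0.54 ± 0.30 (SE, edgeR adjusted p = 0.144). The adjusted p was 0.0454 to 0.263 with each embryo left out, and below the threshold without 1C embryo 1, 1C embryo 2, 4CB embryo 1, 4CB embryo 3 or 8CB embryo 3.

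Pairs of stages across the pools all share embryos with the comparison of the pools, and pairs with a stage in common share embryos with each other. Of the genes tested, 41.5% were called between 2CB and 1C, 40.9% between 4CB and 1C, 38.4% between 8CB and 2CB and 40.2% between 8CB and 4CB, and 47.1% in the test among the 4 stages. Erbb2, Erbb3, Errfi1 and Cbl were called among the 4 stages (edgeR adjusted p = 0.00182, 0.000393, 1.77e-07 and 0.0531), and Grb2 was not (0.494). The call of Cbl among the 4 stages was lost without a filter (adjusted p = 0.241). Erbb2, Erbb3 and Errfi1 were called in each of these 4 pairs, always higher in the 2CB or 4CB embryos, and the call of Erbb3 between 8CB and 4CB was lost without a filter. Relative to 1C embryos, Erbb2 gave log2 fold changes of 2.96 ± 0.74 in 2CB and 2.38 ± 0.77 in 4CB embryos, and in 8CB embryos it gave −2.74 ± 0.74 relative to 2CB and −2.16 ± 0.76 relative to 4CB. Erbb3 gave 1.89 ± 0.40, 1.56 ± 0.41, −1.55 ± 0.39 and −1.23 ± 0.40 in the same order. Grb2 was called in none of the 4 pairs.

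Within the pools, 0 of the 5 genes tested were called. The background was as low, with 0% of genes called in edgeR for 8CB against 1C (550 with an unadjusted p below 0.05, and 43 called by DESeq2) and 0.0337% for 4CB against 2CB. Without a filter 0.449% and 0.207% of genes were called, among them Errfi1 in 8CB against 1C and none of the 10 in 4CB against 2CB.

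Other genes of the pathway, taken from 6 lists, moved in both directions. Of 102 genes 48 were tested, of which 19 were called higher and 11 lower in 2CB and 4CB embryos, with a median log2 fold change of 0.28 beside 0.12 for all genes. These shares are to be read against the 31.3% of all genes called higher and 55.3% called in either direction, and those of the single lists below likewise. Among 22 tested adaptors and kinases 9 were called higher and 3 lower, led among the higher by Src (3.08), Gab2 (2.84) and Stat3 (1.93), a kinase, a docking protein and a transcription factor of the pathway. Called lower were Sos1 (−1.67), which loads RAS with GTP and binds GRB2, Ptpn11 (−1.29), the phosphatase SHP2, and Map2k2 (−1.09), the kinase MEK2. Both tested genes of ligand shedding, the sheddases Adam17 (−0.998, edgeR adjusted p = 0.00145) and Adam10 (−0.64, adjusted p = 0.0857), were called lower. Adam10 was not called with DESeq2, DESeq2 size factors, no filter, the replicate block, thinning on the same genes, or without 1C embryo 3 or 8CB embryo 6. Without a filter 7 genes of that list were tested, with 1 called higher and 1 lower.

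**Figure D3:**
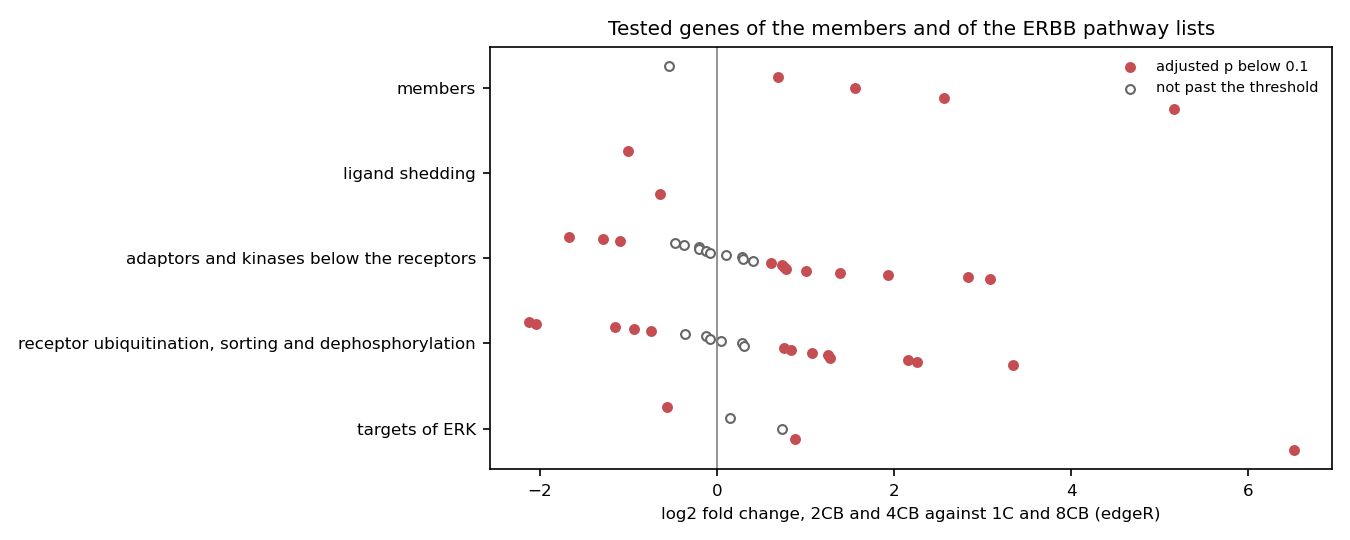
Log2 fold change between the pools (horizontal axis, edgeR) of the tested genes of the 10 and of the pathway lists (vertical axis, 1 row per list, points spread vertically for visibility), with red for an adjusted p below 0.1. The adaptors and kinases, the ubiquitination and sorting genes and the targets of ERK hold called genes on both sides of 0, the 2 tested shedding genes lie below 0, and Dusp6, at 6.51, lies farthest to the right.

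Of 19 tested genes of receptor ubiquitination, sorting and dephosphorylation, 8 were called higher and 5 lower, again beside 31.3% higher and 55.3% in either direction over all genes. Ptprk (3.35), a receptor phosphatase, Snx2 (2.27), a sorting nexin, and Nedd4 (2.16), a ubiquitin ligase, led the higher genes, and Stam2 (−2.12), of the endosomal sorting machinery, Ptpn2 (−2.04), a phosphatase, and Rnf41 (−1.15), a ligase that acts on ERBB3, the lower. Of 20 targets of ERK signaling 5 were tested, and Dusp6, a phosphatase that ends ERK signaling, was higher, with 1365 UMIs in 2CB and 4CB embryos and 10 in 1C and 8CB embryos. Phlda1 (0.88) was called higher between the pools and Mcl1 (−0.56) lower. Without a filter 18 targets were tested, with 8 called higher and 1 lower, beside 14.2% of genes called higher. Phlda1, which encodes a protein of the pleckstrin homology family, was also 1 of the 2 genes called between 4CB and 2CB embryos, with a log2 fold change of 2.04 ± 0.40 (SE, edgeR adjusted p = 0.0474). The call was lost with the replicate block (adjusted p = 0.313), after thinning (0.433, and 0.534 on the same genes), and without 2CB embryo 5 or 6 or 4CB embryo 1, 2 or 3 (at most 0.161). Its level was 97.9 to 356 CPM in 4CB and 26.1 to 85.1 CPM in 2CB embryos, and 27.4 to 118 CPM in 1C and 0 to 101 CPM in 8CB embryos. The 2CB embryos thus lay within the range of 1C and 8CB embryos, and the 4CB embryos were the higher ones of their pool.

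**Figure D4:**
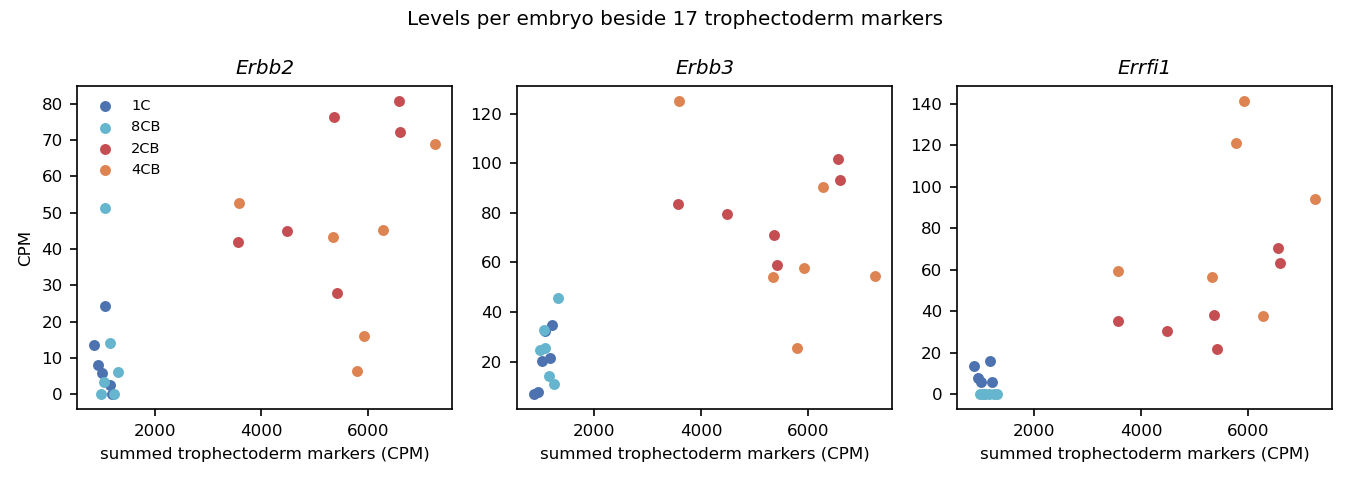
Level of Erbb2, Erbb3 and Errfi1 (vertical axis, CPM) beside the summed level of 17 trophectoderm markers (horizontal axis, CPM) in each of 24 embryos, colored by stage. The 2CB and 4CB embryos lie at 3568 to 7256 CPM of markers and the 1C and 8CB embryos at 871 to 1309, so the points form 2 clusters and no correlation over all embryos is given.

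After stage means were removed, the level of Cbl on the log2 CPM scale was most like that of Qk (Pearson r = 0.81), Pdcd10 (0.73) and Srek1ip1 (0.73) over 24 embryos and 5940 genes, and that of Grb2 most like that of Dcp2 (0.73), Dnmt1 (0.73) and Apbb2 (0.72). These were the highest of all genes and embryos share their depth, so the values are descriptions. Between pairs of the 5 tested genes r lay between −0.36 and 0.32, with −0.21 for Erbb2 and Errfi1 and −0.36 for Erbb3 and Errfi1. Summed over the 10 genes, the level was 300.3 to 466.6 CPM in 2CB and 4CB embryos and 89.2 to 332.5 CPM in 1C and 8CB embryos, with 1C embryos 3 and 5 overlapping the other pool.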

How the data were processed

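Polyadenylated RNA of 24 single embryos had been sequenced as CEL-Seq2 libraries. The authors report aligning reads to GRCm38 with HISAT2 and counting UMIs per gene with HTSeq. The deposited values are whole-number UMI counts before normalization. They come with exon positions and gene lengths, and whether HTSeq wrote them in this form is not known. The annotation release and strand setting are not given in the sources used here. The largest count, 53029 for 1 gene in 1 embryo, is large for short UMIs, and the UMI length is not given in the sources used here. Whether all values are distinct UMIs is not known, and counting intervals may be too narrow. Another 24 columns, of no listed sample, were not used.

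Symbols came from GENCODE M21 (51633 of 52366 genes). Counts were normalized by TMM (factors 0.928 to 1.07), filtered with filterByExpr and fitted in edgeR 4.0.16 (R 4.3.3) with 1 mean per stage, a common biological coefficient of variation of 0.442 and Benjamini-Hochberg adjustment over all genes tested, and SEs were derived from the F statistic. DESeq2 1.42.0 was an alternative. Named were the 10 genes, the list genes called within a pool, up to 3 list genes each way between the pools, and for the 2 of the 10 with the highest mean CPM the 3 most correlated genes. The 10 genes and the lists were chosen with earlier results of these data known, and the motifs after the windows were read. Embryo numbers in the column names were checked for pairing: over 36 pairs the mean correlation of deviations from stage means was −0.02 (−0.25 to 0.22), so embryos were taken as unpaired.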

Additional observations from a re-analysis of the deposited data

Results flagged for a closer look

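In 7 of the 35 stage groups of 6 embryos in which a gene varied, 1 embryo stood apart from the other 5 by more than Dixon's 95% critical value. Chance flags about 1 group in 20 where values are continuous, and these groups hold many zeros and low counts, so their number cannot be read against that rate. In 4 groups the high embryo had 4 UMIs or fewer. These were Egfr in 4CB embryo 2 (19.1 CPM, 3 UMIs), Cblb in 1C embryo 4 (16.2 CPM, 2 UMIs), Lrig1 in 8CB embryo 1 (11.2 CPM, 4 UMIs) and Socs5 in 8CB embryo 6 (14.1 CPM, 1 UMI). Erbb2 was high in 8CB embryo 5 (51.2 CPM, 6 UMIs), where the next embryo had 14.1 CPM. Lrig1 was high in 1C embryo 5 (35.0 CPM, 12 UMIs against 2.71 CPM in the next embryo). Grb2 was low in 2CB embryo 5 (24.9 CPM, 26 UMIs against 51.1 CPM in the next), an embryo with 1045282 UMIs in all.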

How the results depend on the processing

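The calls of Erbb2, Erbb3, Errfi1 and Cbl between the pools held with DESeq2, DESeq2 size factors, no filter, a filter of 5 counts in 12 embryos, an adjusted p below 0.05, the embryo number as a replicate block, thinning on the same genes (chosen after seeing the data) and each embryo left out. Thinning to 70941 UMIs with the filter applied anew left 0 of the 10 genes tested. Counts of genes called moved by over 1.5 times as follows. Between the pools 5525 were called without a filter and 1191 after thinning, against 3284. For 8CB against 1C DESeq2 called 43 and no filter 104, and for 4CB against 2CB they called 10 and 48, thinning 0, thinning on the same genes 1 and the replicate block 1, against 2. Thinning gave 907 for the pair of 2CB and 1C, 898 for 4CB and 1C, 878 for 8CB and 2CB and 926 for 8CB and 4CB, and fitting only the 12 embryos compared gave 1500 for 4CB and 1C. In the difference between the pools' stage changes DESeq2 called 34, no filter 112 and thinning 1. Among the 4 stages no filter gave 5197 and thinning 1053. With an embryo left out, the counts ranged from 0 to 3 for 8CB against 1C, 1 to 6 for 4CB against 2CB and 0 to 14 for that difference. The sign turned for Erbb2 in 8CB against 1C (−1.09 to 0.71 with an embryo left out) and in the difference of stage changes (−1.28 to 0.53), and for Grb2 in 8CB against 1C (−0.18 to 0.33, and −0.31 after thinning on the same genes), in 4CB against 2CB (0.088 after thinning on the same genes) and in the difference of stage changes (−0.45 to 0.057, and 0.40 after thinning on the same genes). None of these was past the threshold, and the cause was not tested. The replicate block, run on the 5 genes that passed the filter, changed none of their calls. Depth limits Egfr, Hbegf, Lrig1 and Socs5, of which at most 45 UMIs were counted.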
